A study of Homo sapiens with 15 samples.

Results

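The red cell membrane and glycophorin genes SPTB, ANK1, EPB41, EPB42, GYPB, GYPC, RHAG and KEL were followed through 15 RNA-seq libraries of K562, a human BCR-ABL1+ chronic myeloid leukemia line that carries erythroid features. The 8 genes were taken from both expression tables of the series by their symbols. The knockout table held 7 of them among 17769 genes with an identifier, since EPB42 was not listed there, and the resistance table held all 8 among 60510 genes. The 9 libraries of the knockout table were 3 replicates each of the empty vector (EV) control, labelled as wild type, of HSP90α-KO and of HSP90β-KO, all untreated. These cells carried Cas9 and a lentiviral guide vector, empty in EV, were sorted by a fluorescence marker and, per the labels, were selected as single clones. The number of clones behind a group is not given in the sources used here. The resistance table held 3 parental libraries, from wild type cells kept long term in the solvent DMSO, and 3 PUHr libraries, from wild type cells kept long term in rising amounts of PU-H71, an inhibitor that binds the N-terminal domain of HSP90. Per the labels these too were selected as single clones. With clonal selection, the knockout or the resistance and the clone cannot be told apart, and, while the study calls its replicates independent, the labels do not say whether they came from separate cultures, so p-values measured only the spread between these libraries. The tables were normalized separately, so no test was made across them.

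The red cell keeps its shape through a mesh of spectrin under the lipid bilayer. Ankyrin and protein 4.2 tie this mesh to one set of membrane proteins, and protein 4.1 ties it to another, which includes glycophorin C. The Rh-associated glycoprotein, the glycophorins and the Kell protein span the membrane and carry blood group antigens. Loss of spectrin, ankyrin or protein 4.2 is a known basis of hereditary spherocytosis. Many of these genes are switched on in erythroid precursors by factors that read GATA and CACCC letters near the start of a gene, among them GATA1 and KLF1.

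The 250 bases before the start of each gene were therefore searched for these letters. RefSeq windows on GRCh38.p14 were found for 7 of them, all but ANK1. GATAA, on either strand, stood in the most upstream window of 4 of 7 genes (SPTB, EPB42, RHAG and KEL), and in 20.4% of 35116 windows of all genes. CACCC, on either strand, stood in 6 of 7, and in 54.7% of all windows. Both motifs stood in 4 of 7, and in 8.75% of all windows. The shares of all windows count every window of a gene, while members were counted by their most upstream window only. The 2 measures are therefore not quite alike. The windows of the 4 genes with GATAA, and of GYPB, which changed most in PUHr, follow, 5′ to 3′ along the gene, in lower case with GATAA or TTATC and CACCC or GGGTG in capitals. They lie at chr14:64879908-64880157 on the minus strand for SPTB, chr15:43221019-43221268 on the minus strand for EPB42, chr4:144019381-144019630 on the minus strand for GYPB, chr6:49636840-49637089 on the minus strand for RHAG and chr7:142962364-142962613 on the minus strand for KEL.

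SPTB: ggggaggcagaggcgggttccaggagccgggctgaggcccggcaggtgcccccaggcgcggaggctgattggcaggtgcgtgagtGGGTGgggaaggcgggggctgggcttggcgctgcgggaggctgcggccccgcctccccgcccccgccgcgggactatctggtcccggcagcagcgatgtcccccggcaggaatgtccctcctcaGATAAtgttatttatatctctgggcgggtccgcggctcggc  
EPB42: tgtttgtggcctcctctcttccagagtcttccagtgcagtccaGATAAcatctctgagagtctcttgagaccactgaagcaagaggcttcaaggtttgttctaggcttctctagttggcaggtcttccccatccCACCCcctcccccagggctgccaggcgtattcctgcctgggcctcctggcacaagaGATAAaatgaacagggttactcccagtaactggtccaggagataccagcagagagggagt  
GYPB: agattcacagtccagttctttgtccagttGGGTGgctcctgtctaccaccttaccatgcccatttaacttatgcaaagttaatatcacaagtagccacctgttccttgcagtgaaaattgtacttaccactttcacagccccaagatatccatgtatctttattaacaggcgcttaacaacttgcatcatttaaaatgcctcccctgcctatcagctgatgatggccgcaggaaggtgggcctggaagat  
RHAG: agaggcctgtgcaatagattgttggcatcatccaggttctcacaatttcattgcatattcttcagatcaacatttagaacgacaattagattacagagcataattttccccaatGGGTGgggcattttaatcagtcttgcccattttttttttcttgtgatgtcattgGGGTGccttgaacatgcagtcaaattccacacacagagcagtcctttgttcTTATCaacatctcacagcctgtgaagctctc  
KEL: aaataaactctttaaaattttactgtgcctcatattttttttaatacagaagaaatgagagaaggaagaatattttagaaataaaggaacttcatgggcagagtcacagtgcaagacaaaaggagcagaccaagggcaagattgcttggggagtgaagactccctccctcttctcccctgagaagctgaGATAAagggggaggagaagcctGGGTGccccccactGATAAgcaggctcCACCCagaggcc

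In SPTB the GATAA match began 41 bases before the start. A second SPTB window, at chr14:64823381-64823630 before a start further downstream, held no GATAA and held CACCC at 154 and 85 bases. RHAG held its match 31 bases before the start, on the opposite strand. KEL had matches at 61 and 25 bases and CACCC matches at 39 and 12 bases. GYPB had no GATAA in the window shown. A second annotated start of GYPB lies 35 bases further downstream, and the window before that start held GATAA at 38 bases and no CACCC. EPB41 held neither motif, and GYPC held CACCC alone, at 142 and 116 bases. A match of letters is a description of the window, and no binding was measured here.

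Libraries held between 19594381 and 26216730 reads on genes, so that 1 read was worth 0.0381 to 0.0518 CPM, the reads on a gene scaled to the size of the library. The members were deeply covered: the lowest count of a tested member in any library was 380 reads, for GYPB in HSP90α-KO. Within a group, the replicate coefficient of variation of the tested members ran from 0.367% to 8.49% with a median of 2.29%. HSP90AA1, which encodes HSP90α, stood at 704 ± 18.7 CPM (SD, n = 3) in EV and 90.4 ± 2.34 CPM in HSP90α-KO. HSP90AB1, which encodes HSP90β, stood at 2806 ± 21.1 CPM in EV and 1913 ± 25.1 CPM in HSP90β-KO. Both transcripts were thus lower in the line named for them, and HSP90AB1 transcript remained in HSP90β-KO.

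To set the genes beside each other, CPM was divided by the summed length of each gene's annotated exons in kilobases. RHAG, which encodes an ammonia channel at the core of the Rh complex, was the highest member per length in EV at 112 ± 1.57 CPM per kb (SD, n = 3). GYPC followed at 83.5 ± 2.46 CPM per kb, EPB41 at 25.4 ± 0.396, GYPB at 18.8 ± 0.430, KEL at 9.74 ± 0.246, ANK1 at 8.25 ± 0.386 and SPTB at 4.54 ± 0.385 CPM per kb. Neighbours in this order did not overlap between EV libraries. The order shifted elsewhere. In HSP90α-KO the libraries of GYPB (10.3 to 11.8 CPM per kb) overlapped those of ANK1 (9.58 to 10.6), and in parental cells KEL (22.8 to 23.4) overlapped ANK1 (22.3 to 23.4). GYPB stood above EPB41 per length in both groups of the resistance table and below it in all groups of the knockout table. EPB41 has the longest summed exon length of the members, 19.993 kb, and dividing by a longer length gives a lower level per length.

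**Figure D1:**
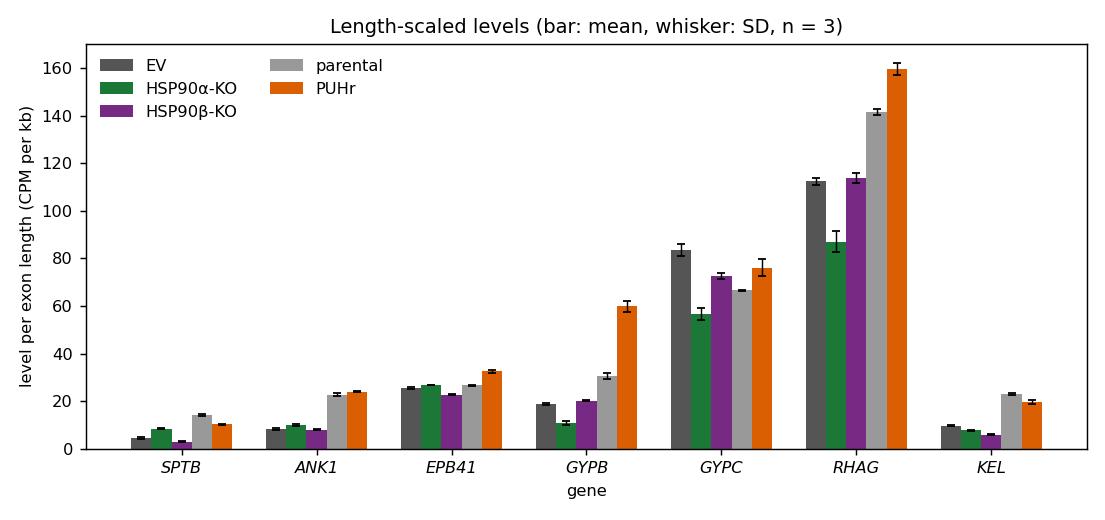
Mean level per exon length, in CPM per kb, of the 7 tested genes in the 5 groups, with whiskers for the SD of 3 libraries. RHAG and GYPC stand above the other genes in each group, from 56.8 CPM per kb for GYPC in HSP90α-KO to 160 CPM per kb for RHAG in PUHr.

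SPTB encodes β-spectrin of the red cell, the chain that carries the ankyrin and protein 4.1 binding sites of the mesh. Its gene spans chr14:64746283-64879907 (GRCh38). The 3 EV libraries held 62.4, 73.5 and 65.4 CPM, the HSP90α-KO libraries 129, 127 and 122 CPM, and the HSP90β-KO libraries 44.6, 41.0 and 44.5 CPM. No library of one group reached into another, with HSP90α-KO highest and HSP90β-KO lowest. SPTB rose 1.88-fold in HSP90α-KO against EV (log2 fold change 0.91, SE 0.05, limma adjusted p = 1.0e-14) and fell to 0.648 of the EV level in HSP90β-KO (log2 fold change -0.63, SE 0.05, limma adjusted p = 6.1e-11). The difference between the lines was 2.90-fold (log2 fold change 1.53, 95% interval 1.43 to 1.64, limma adjusted p = 7.9e-20). In the resistance table, SPTB stood at 218, 208 and 209 CPM in parental cells and 154, 151 and 152 CPM in PUHr. All PUHr libraries were below all parental libraries, and the gene fell to 0.720 of the parental level (log2 fold change -0.47, SE 0.03, limma adjusted p = 1.9e-09).

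ANK1, the ankyrin that joins spectrin to the membrane, spans chr8:41653220-41896741. The EV libraries held 89.9, 95.3 and 87.0 CPM, HSP90α-KO 117, 107 and 105 CPM, and HSP90β-KO 87.2, 86.3 and 89.7 CPM. HSP90α-KO stood above EV in every library, whereas HSP90β-KO and EV overlapped. ANK1 rose 1.21-fold in HSP90α-KO (log2 fold change 0.28, SE 0.04, limma adjusted p = 3.4e-06). In HSP90β-KO the log2 difference from EV was -0.05 with a 95% interval of -0.13 to 0.04 (limma adjusted p = 0.42). Parental cells held 257, 246 and 246 CPM and PUHr 262, 265 and 265 CPM. ANK1 passed the test as higher in PUHr, by a log2 fold change of 0.08 (limma adjusted p = 0.015), a call lost under 5 alternatives, with an adjusted p of up to 0.32.

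EPB41 encodes protein 4.1, which strengthens the contact of spectrin with actin, and spans chr1:28887091-29120046. Its libraries held 508, 499 and 515 CPM in EV, 537, 535 and 538 CPM in HSP90α-KO, and 455, 460 and 451 CPM in HSP90β-KO. The groups were narrow and did not overlap. The rise in HSP90α-KO was small, 1.06-fold (log2 fold change 0.08, limma adjusted p = 0.011), and it rested on the scaling: quantile normalization gave -0.0005996 (adjusted p = 0.99) and scaling to total reads gave 0.04 (adjusted p = 0.21). EPB41 fell to 0.898 of the EV level in HSP90β-KO (log2 fold change -0.16, SE 0.03, limma adjusted p = 3.4e-05). In the resistance table it stood at 536, 537 and 527 CPM in parental cells and 661, 639 and 653 CPM in PUHr. The gene rose 1.22-fold in PUHr (log2 fold change 0.29, SE 0.02, limma adjusted p = 3.1e-08).

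EPB42, which encodes protein 4.2, a partner of ankyrin, spans chr15:43197227-43221018. It had 3 reads in parental replicate 2, or 0.126 CPM, and 0 reads in the other 5 libraries of the resistance table. A count of 0 allows up to 3 reads, 0.120 to 0.141 CPM in these libraries, with counting error only. EPB42 transcript was therefore not detectable above that level in PUHr, and no difference was tested. Another annotated gene shares 12.1% of the 3076 stretches of 76 bases in EPB42's transcripts, so reads from these stretches cannot be assigned with certainty.

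GYPB encodes glycophorin B, the sialoglycoprotein with the S and s antigens, and spans chr4:143996104-144019380. EV libraries held 35.4, 35.3 and 36.7 CPM, HSP90α-KO 20.3, 19.7 and 22.4 CPM, and HSP90β-KO 38.1, 38.9 and 38.5 CPM. HSP90α-KO was apart from and below the others, and HSP90β-KO lay slightly above EV. GYPB fell to 0.582 of the EV level in HSP90α-KO (log2 fold change -0.78, SE 0.05, limma adjusted p = 1.5e-12). The difference in HSP90β-KO was 0.10 on the log2 scale with a 95% interval of -0.01 to 0.21 and did not pass (limma adjusted p = 0.14), although no library of HSP90β-KO reached into EV. Parental libraries held 58.3, 55.8 and 60.5 CPM and PUHr libraries 119, 114 and 110 CPM. GYPB rose 1.96-fold in PUHr (log2 fold change 0.97, 95% interval 0.89 to 1.06, limma adjusted p = 3.7e-11), the largest difference of a member in that comparison. A neighbouring glycophorin gene shares 7.17% of the 2440 stretches of 76 bases in GYPB's transcripts, so a small part of its reads cannot be assigned with certainty.

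GYPC encodes glycophorins C and D, which hold protein 4.1 at the membrane, and spans chr2:126656133-126696667. Levels were 292, 309 and 302 CPM in EV, 215, 202 and 198 CPM in HSP90α-KO, and 261, 259 and 267 CPM in HSP90β-KO. EV was highest in every library and HSP90α-KO lowest. GYPC fell to 0.680 of the EV level in HSP90α-KO (log2 fold change -0.56, SE 0.03, limma adjusted p = 9.7e-14) and to 0.872 in HSP90β-KO (log2 fold change -0.20, SE 0.03, limma adjusted p = 2.9e-05). GYPC and KEL were lower by a margin that passed in both knockout lines. Parental libraries stood at 241, 241 and 239 CPM and PUHr at 269, 289 and 265 CPM. GYPC rose 1.14-fold in PUHr (log2 fold change 0.19, SE 0.03, limma adjusted p = 1.0e-04).

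RHAG, at chr6:49605175-49636839, held 296, 291 and 300 CPM in EV, 216, 237 and 234 CPM in HSP90α-KO, and 295, 305 and 296 CPM in HSP90β-KO. HSP90α-KO lay below EV in every library, and HSP90β-KO overlapped EV. RHAG fell to 0.774 of the EV level in HSP90α-KO (log2 fold change -0.37, SE 0.03, limma adjusted p = 3.7e-10). Its HSP90β-KO difference was 0.02 with a 95% interval of -0.05 to 0.08 (limma adjusted p = 0.76). In the resistance table it stood at 369, 376 and 372 CPM in parental cells and 426, 413 and 419 CPM in PUHr, without overlap. RHAG rose 1.13-fold in PUHr (log2 fold change 0.17, SE 0.02, limma adjusted p = 1.1e-05).

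KEL encodes the Kell glycoprotein, a zinc endopeptidase, and spans chr7:142941114-142962363. EV libraries held 34.8, 35.5 and 36.6 CPM, HSP90α-KO 29.7, 27.2 and 27.5 CPM, and HSP90β-KO 22, 21.7 and 21.5 CPM. The groups did not overlap, and HSP90β-KO was lowest. KEL fell to 0.790 of the EV level in HSP90α-KO (log2 fold change -0.34, SE 0.05, limma adjusted p = 4.4e-06) and to 0.611 in HSP90β-KO (log2 fold change -0.71, SE 0.05, limma adjusted p = 2.2e-11). Parental cells held 85.6, 83.5 and 84.2 CPM and PUHr 73.6, 68.6 and 74.5 CPM. KEL fell to 0.855 of the parental level in PUHr (log2 fold change -0.23, SE 0.04, limma adjusted p = 1.1e-04).

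In HSP90α-KO against EV, the comparison that asks what loss of HSP90α changes, all 7 tested members differed. SPTB, ANK1 and EPB41 rose, 3 of 7, where 27.5% of the 17039 tested genes rose. GYPB, GYPC, RHAG and KEL fell, 4 of 7, where 26.6% of all tested genes fell. Log2 fold changes ran from -0.78 to 0.91 with a median of -0.34, and all tested genes had a median of -0.01. No member was beyond a log2 fold change of 1, the threshold of the study, at an adjusted p under 0.05, where 5.32% of all tested genes were higher and 5.01% lower beyond it.

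Against EV, HSP90β-KO showed 0 members that rose and 4 of 7 that fell, where 17.2% of all tested genes rose and 17.2% fell. SPTB, EPB41, GYPC and KEL fell, whereas ANK1, GYPB and RHAG did not pass. At an unadjusted p below 0.05 likewise 0 members rose, and voom gave the same count. The median of the members was -0.16 and that of all tested genes 0.00. None was beyond the fold change threshold, where 1.83% of all tested genes were higher and 2.65% lower. HSP90α-KO and HSP90β-KO were compared with the same EV libraries, so these counts share their control.

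In HSP90α-KO against HSP90β-KO, all 7 differed, 4 as higher (SPTB, ANK1, EPB41 and KEL, where 30.1% of tested genes were higher) and 3 as lower (GYPB, GYPC and RHAG, where 29.8% were lower). KEL was higher by a log2 fold change of 0.37 (limma adjusted p = 9.4e-07), though it fell in both lines against EV. ANK1 was higher by 0.32 (limma adjusted p = 2.1e-07) and EPB41 by 0.24 (limma adjusted p = 1.6e-08). The EPB41 difference ran from 0.10 to 0.28 over the alternatives that kept all libraries compared. GYPB differed by -0.89 (limma adjusted p = 7.4e-14), RHAG by -0.38 (limma adjusted p = 1.2e-10) and GYPC by -0.36 (limma adjusted p = 5.1e-10). SPTB alone was beyond the fold change threshold, 1 member where 7.14% of tested genes were higher and 5.57% lower beyond it.

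PUHr against parental, which asks what long-term PU-H71 selection changes, gave 5 members that rose (ANK1, EPB41, GYPB, GYPC and RHAG) and 2 that fell (SPTB and KEL), where 25.6% of the 16503 tested genes rose and 25.8% fell. The members' median was 0.17 and that of all tested genes 0.00. None was beyond the fold change threshold, where 5.37% of all tested genes were higher and 4.69% lower. GYPB stood nearest to it, and passed it without parental replicate 3 and when scaled to total reads.

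**Figure D2:**
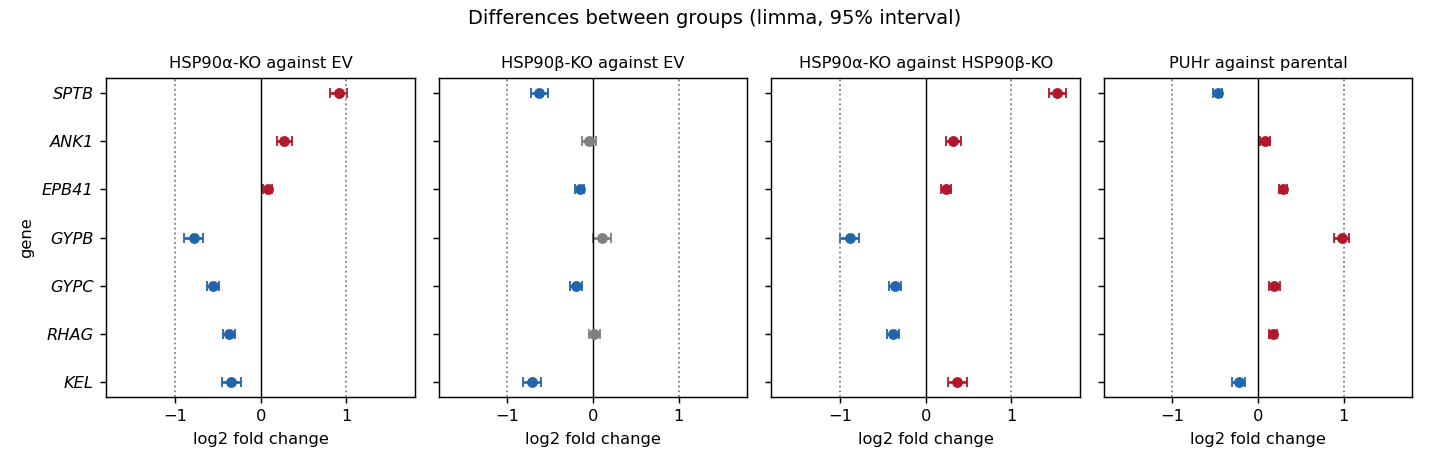
Log2 fold change (horizontal axis) of the 7 tested genes in 4 comparisons, with the 95% interval from limma; red rose, blue fell, grey did not pass, and dotted lines mark the fold change threshold of the study. SPTB in HSP90α-KO against HSP90β-KO, at 1.53, is the one point past a dotted line.

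Because K562 clones can differ in the copy number of chromosome segments, the genes within 5 Mb of each member were read in the same fit. Neighbours of SPTB, 54 genes, lay at a median of -0.07 on the log2 scale in HSP90α-KO and -0.05 in HSP90β-KO against EV, and 47 neighbours lay at 0.07 in PUHr, beside 0.91, -0.63 and -0.47 for SPTB itself. GYPB's neighbours had medians of 0.03 in HSP90α-KO and 0.03 in PUHr, and those of KEL had 0.01 in HSP90β-KO. In HSP90α-KO KEL's neighbours went both ways, with a median of -0.10 and quartiles of -0.25 and 0.35, and 13 of 42 rose and 16 fell, where 27.5% and 26.6% of all tested genes did. GYPC's neighbours moved with it in HSP90α-KO, by a median of -0.16, and 22 of 50 fell and 4 rose, where 26.6% of all tested genes fell and 27.5% rose. RHAG's neighbours had a median of 0.16 in HSP90α-KO, opposite to RHAG. EPB41's 145 neighbours had a median of 0.10 in HSP90α-KO, beside 0.08 for EPB41, and 63 of them rose and 18 fell, where 27.5% of all tested genes rose and 26.6% fell. In HSP90α-KO against HSP90β-KO the median of these neighbours was 0.19, beside 0.24 for EPB41, and 72 were higher and 26 lower, where 30.1% and 29.8% of all tested genes were. Copy number was not measured here, and its part in these values was not tested. The study ran SNP arrays on PUHr, parental, HSP90β-KO and EV cells, which were not read here. It reported a gain in PUHr of the segment that holds HSP90AA1.

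**Figure D3:**
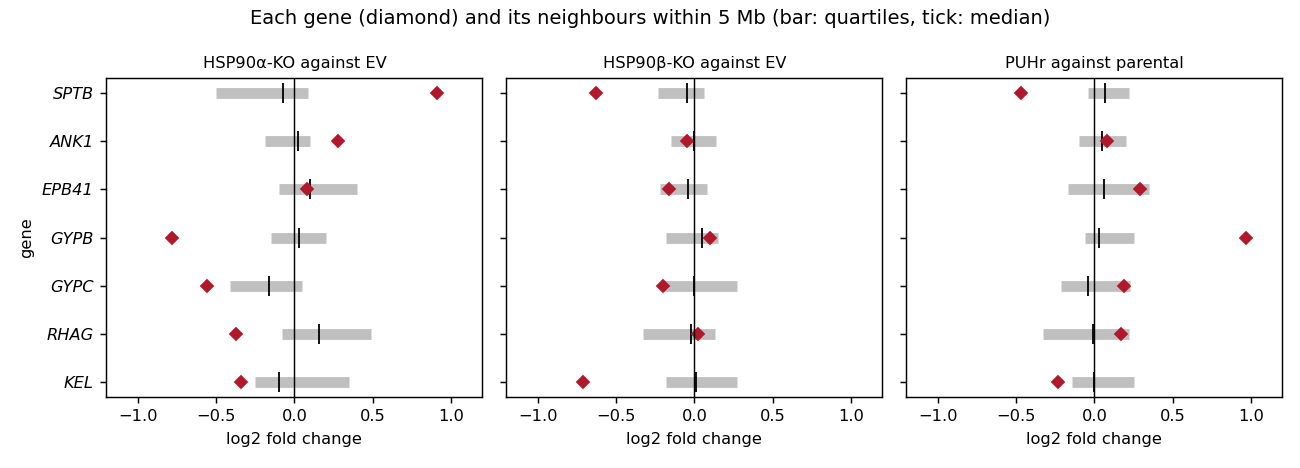
Log2 fold change (horizontal axis) of each tested gene (diamond) and of the tested genes within 5 Mb of it (grey bar for the quartiles, tick for the median) in 3 comparisons. SPTB, GYPB and KEL lie outside their neighbours' quartiles in HSP90α-KO and PUHr, and ANK1, GYPC and RHAG do so in HSP90α-KO.

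A list of 26 other red cell membrane genes was followed beside the members. Of the 25 tested, 9 rose and 12 fell in HSP90α-KO (median -0.10), 4 rose and 7 fell in HSP90β-KO (median 0.01), and 14 rose and 9 fell in PUHr (median 0.12). Of all tested genes, 27.5% rose and 26.6% fell in HSP90α-KO, 17.2% rose and 17.2% fell in HSP90β-KO, and 25.6% rose and 25.8% fell in PUHr. RHCE, which carries the Rh C and E antigens and assembles with RHAG, fell with it in HSP90α-KO (log2 fold change -1.23, limma adjusted p = 3.3e-13) and rose with it in PUHr (1.08, limma adjusted p = 7.2e-12). ADD2, a β-adducin that caps actin and recruits spectrin, fell in HSP90α-KO (-1.44, limma adjusted p = 1.4e-19). ADD3, a γ-adducin, was higher in HSP90α-KO than in HSP90β-KO by 1.07 (limma adjusted p = 6.2e-19), and ADD2 was lower by -2.02 (limma adjusted p = 5.8e-23). The potassium channel gene KCNN4 fell in HSP90α-KO (-1.67, limma adjusted p = 3.2e-12). MPP1, the p55 scaffold that binds protein 4.1 and glycophorin C, fell in PUHr (-1.34, limma adjusted p = 2.7e-14), as did the tropomyosin gene TPM1 (-1.56, limma adjusted p = 1.3e-09). The largest change of the list in PUHr, -2.81, was in a gene that is not named here.

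Among blood group genes, 6 rose and 11 fell of 20 tested in HSP90α-KO (median -0.14), 4 rose and 9 fell in HSP90β-KO (median -0.12), and 9 rose and 4 fell of 19 in PUHr (median -0.02). The rises in both knockout lines were near the shares of all tested genes, 27.5% in HSP90α-KO and 17.2% in HSP90β-KO, as were the falls in PUHr, where 25.8% of all tested genes fell and 25.6% rose. Falls stood beside shares of 26.6% in HSP90α-KO and 17.2% in HSP90β-KO. CD44, the Indian antigen carrier, fell in HSP90α-KO (-1.31, limma adjusted p = 1.3e-13) and rose in HSP90β-KO (1.45, limma adjusted p = 5.6e-14). ABCG2, the Junior antigen transporter, fell in HSP90α-KO (-3.44, limma adjusted p = 1.7e-15) and rose in HSP90β-KO (1.46, limma adjusted p = 1.0e-07) and in PUHr (1.41, limma adjusted p = 9.6e-12). ART4, the Dombrock antigen carrier, rose in PUHr (1.52, limma adjusted p = 6.5e-07). GCNT2, the I-branching enzyme, fell in PUHr (-1.41, limma adjusted p = 1.1e-05) and was higher in HSP90α-KO than in HSP90β-KO (1.11, limma adjusted p = 2.4e-10).

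Relatives of the members that serve outside the red cell showed 4 rises and 8 falls of 14 tested in HSP90α-KO (median -0.25), 6 and 4 in HSP90β-KO (median 0.11), and 8 and 5 of 18 in PUHr (median 0.06). Rises in HSP90α-KO and falls in PUHr were near the shares of all tested genes, 27.5% and 25.8%. The other shares of all tested genes were 26.6% falling in HSP90α-KO, 17.2% for either direction in HSP90β-KO and 25.6% rising in PUHr. The ankyrin genes ANK2 and ANK3 fell in HSP90α-KO, by -2.09 (limma adjusted p = 8.3e-13) and -2.37 (limma adjusted p = 5.4e-14), and rose in HSP90β-KO, by 1.79 (limma adjusted p = 5.1e-11) and 1.44 (limma adjusted p = 3.3e-09), unlike ANK1, which rose in HSP90α-KO. The protein 4.1 relatives EPB41L1, EPB41L3 and EPB41L4A fell in HSP90α-KO, by -2.04, -1.99 and -1.01, and EPB41L1 rose by 1.29 in PUHr. SPTBN4, a nonerythroid β-spectrin, was higher in HSP90α-KO than in HSP90β-KO by 1.53 (limma adjusted p = 8.8e-12), the same direction as SPTB.

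Erythroid regulators, of which 16 were tested, held 10 that rose and 5 that fell in HSP90α-KO (median 0.22), 1 and 9 in HSP90β-KO (median -0.12), and 4 and 7 in PUHr (median -0.05). Of all tested genes, 27.5% rose and 26.6% fell in HSP90α-KO and 17.2% rose and 17.2% fell in HSP90β-KO. In PUHr 25.6% rose and 25.8% fell, so the rises there were at the share of all genes. LDB1, a bridge of the GATA1 complex, rose in HSP90α-KO (1.08, limma adjusted p = 1.5e-18), as did MYB (1.06, limma adjusted p = 6.5e-21). LMO2, another part of that complex, was higher in HSP90α-KO than in HSP90β-KO by 1.04 (limma adjusted p = 9.9e-17). SPI1, a myeloid factor, fell in PUHr (-1.46, limma adjusted p = 4.5e-11). The largest changes of the list against the controls, -5.74 in HSP90α-KO and -5.59 in PUHr, were in a gene that is not named here. GATA1 and KLF1 were looked at after their values were seen, because they read the letters described above. GATA1 rose in HSP90α-KO (0.18, limma adjusted p = 8.5e-04) and fell in HSP90β-KO (-0.30, limma adjusted p = 2.6e-06) and PUHr (-0.26, limma adjusted p = 4.1e-06). KLF1 rose by 0.24 (limma adjusted p = 4.2e-04), fell by 0.65 on the log2 scale (limma adjusted p = 2.1e-10) and fell by 0.35 (limma adjusted p = 1.2e-03) in the same 3 comparisons. Of the 4 members with GATAA in the upstream window, SPTB rose, fell and fell in these comparisons, and KEL fell in all 3. RHAG fell, did not pass and rose, and EPB42 was not tested. Whether GATA1 or KLF1 acts on the members was not tested.

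Marker sums moved between groups too. The summed level of 9 listed erythroid markers of 10 was 983 to 998 CPM per library in EV, 776 to 793 in HSP90α-KO and 848 to 883 in HSP90β-KO, with no marker at 0. In the resistance table, where 10 were listed, it was 2771 to 2815 CPM in parental cells and 2126 to 2198 in PUHr. Of 8 listed markers each, the knockout table held 4 granulocyte and monocyte, 5 lymphocyte and 3 megakaryocyte markers, and the resistance table all 8. These sums thus cover unlike sets in the 2 tables. The granulocyte and monocyte sum was 125 to 131 CPM in EV, 195 to 200 in HSP90α-KO and 55.7 to 60.2 in HSP90β-KO. Most of it came from CSF3R and LYZ there. CSF3R stood at 85.5 CPM in EV, 133 in HSP90α-KO and 25.4 in HSP90β-KO, and LYZ at 41.0, 61.4 and 30.8. The sum was 40.8 to 43.2 CPM in parental cells and 37.5 to 39.5 in PUHr. The lymphocyte sum was 13.7 to 16.1 CPM in EV, 9.37 to 11.3 in HSP90α-KO, 21.2 to 24.4 in HSP90β-KO, 13 to 13.6 in parental cells and 9.70 to 10.3 in PUHr, without overlap between the groups of a table. The megakaryocyte sum was 16.6 to 17.0 CPM in EV, 14.8 to 17.5 in HSP90α-KO, 11.6 to 12.2 in HSP90β-KO, 15.2 to 16.3 in parental cells and 11.8 to 13.9 in PUHr. This sum was lower in PUHr than in parental cells, although of 5 tested megakaryocyte markers 3 rose and 1 fell (median 0.89). Of all tested genes, 25.6% rose and 25.8% fell in PUHr. GYPB, GYPC, RHAG and KEL were lower in HSP90α-KO, as was the erythroid sum, whereas SPTB, ANK1 and EPB41 were higher. In PUHr the erythroid sum was lower while 5 members were higher, but the erythroid markers did not move together. Of 9 tested, 2 rose and 6 fell in PUHr, where 25.6% of all tested genes rose and 25.8% fell. The transferrin receptor gene TFRC, the most abundant of them, went from 1413 ± 4.92 CPM (SD, n = 3) to 895 ± 13 CPM, whereas ALAS2, the erythroid enzyme that opens heme synthesis, rose from 125 ± 2.98 to 250.3 ± 8.05 CPM and the factor gene TAL1 rose from 103 ± 2.27 to 147 ± 1.74 CPM. In HSP90α-KO 1 of 9 rose and 7 fell, where 27.5% of all tested genes rose and 26.6% fell, and ALAS2 went from 204 ± 2.35 CPM in EV to 69.4 ± 1.19 CPM. In HSP90β-KO 4 of 9 fell, where 17.2% of all tested genes fell, and 5 did not pass. All libraries came from K562 cells, so these sums do not count cells of other types. In bulk RNA, fewer cells that express a marker and less RNA per cell cannot be told apart. The part of these markers in the results was not tested.

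Members were last matched to the gene whose level followed each most closely, by Pearson r over the 15 libraries after the mean of each table was taken off, among 11726 genes. These libraries fall into 5 groups that share controls and depth, so r mostly describes group means. SPTB was nearest to MIR3681HG (r = 0.992), ANK1 to LIMK1 (0.968) and GYPB to ANKRD20A5P (0.994). GYPC was nearest to FEZ1 (0.985), RHAG to PTPRC (0.982) and KEL to CCDC150 (0.971).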

How the data were processed

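RNA-seq of K562 cells was read from 2 tables that the authors deposited as log2 CPM. Per the labels and the methods of the study, the authors aligned reads to GRCh38 with STAR, counted them with featureCounts and scaled them with edgeR. They added a prior count of about 2 reads, which pulls low values together. Whole reads came back from the log2 values with a largest deviation of 0.00132 reads. Entries without an identifier, 30 and 114, held 0.0270% to 0.0363% of reads and were left out. The counting did not state a strand setting in the sources used here, and no duplicate removal was assumed.

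The fit took every gene that reached a log2 CPM of -1 in 3 libraries and used limma 3.58.1 in R 4.3.3 (lmFit, contrasts, eBayes with trend, two-sided), in 1 fit per table, with Benjamini-Hochberg adjustment over 17039 and 16503 genes. A gene rose or fell at an adjusted p under 0.05. Fold changes are on the log2 CPM scale. Exon lengths came from GENCODE release 44, which matched 17739 and 60370 genes, and promoter windows from RefSeq on GRCh38.p14. The steps were tested on simulated data, 1 set like each table. At a planted log2 fold change of 0.25, 20 of 50 genes were recovered for HSP90α-KO against EV and 22 of 50 for PUHr against parental. At 0.5, 49 and 46 of 50 were recovered. There were 17 false calls among 16427 genes and 8 among 15932, so small differences can be missed. Alternatives covered filters, pseudocounts, scaling, the variance model, voom on recovered reads, a replicate block and each library left out.

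The members and lists were chosen with earlier results of these data known. All members were named, with up to 5 genes of each list per comparison that had the largest log2 fold change beyond 1 whose mean log2 CPM reached 1 in the higher group, and the gene most like each member. GATA1 and KLF1 were added after their values were seen. Some genes of the lists and of the matches are not reported here. Genes of the cell type lists were used as sums, with TFRC, ALAS2, TAL1, CSF3R and LYZ named after their values were seen.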

Additional observations from a re-analysis of the deposited data

Results flagged for a closer look

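SPTB and EPB41 passed the test in opposite directions in the 2 knockout lines. SPTB rose in HSP90α-KO and fell in HSP90β-KO against EV, and the test of the difference itself gave a log2 fold change of 1.53 (limma adjusted p = 7.9e-20), with all 3 HSP90α-KO libraries above all 3 HSP90β-KO libraries. EPB41 differed between the lines by 0.24 (limma adjusted p = 1.6e-08), likewise in 3 of 3 libraries, and this difference ran from 0.10 to 0.28 over the alternatives that kept all libraries. Its 145 neighbours within 5 Mb had a median of 0.19 in the same comparison, with quartiles of -0.09 and 0.45, and 72 of them were higher, where 30.1% of all tested genes were. SPTB's 54 neighbours had a median of -0.03. The small rise of EPB41 against EV did not hold under every scaling. No cause was tested.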

How the results depend on the processing

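The counts of members that differed, 7, 4, 7 and 7 in HSP90α-KO against EV, HSP90β-KO against EV, HSP90α-KO against HSP90β-KO and PUHr against parental, stayed within 1.5 times under all alternatives. Of 588 recomputed values of single members, 579 kept their direction and side of the threshold. Quantile normalization reversed EPB41 in HSP90α-KO against EV, to -0.0005996 (limma adjusted p = 0.99), and median centring reversed RHAG in HSP90β-KO against EV, to -0.027 (limma adjusted p = 0.60). EPB41 in HSP90α-KO also lost its call without the variance trend (limma adjusted p = 0.058) and with scaling to total reads, an alternative chosen after seeing the data (limma adjusted p = 0.21). ANK1 in PUHr lost its call with no filter (limma adjusted p = 0.11), without trend (0.11), with median centring (0.32), without parental replicate 2 (0.077) and without parental replicate 3 (0.068). At a fold change threshold of 0.5, members beyond it numbered 3 in HSP90α-KO, 2 in HSP90β-KO, 2 in HSP90α-KO against HSP90β-KO and 1 in PUHr, of 7 each, where 22.7%, 11.9%, 27.9% and 20.5% of all tested genes were beyond it. At the threshold of 1, the PUHr count of members beyond it was 0, ran from 0 to 1 with libraries left out (1 without parental replicate 3) and was 1 with scaling to total reads, through GYPB. Same-numbered replicates did not deviate together (r from -0.048 to 0.045), so the numbers were not taken as pairs, and with a replicate block 7, 4, 7 and 7 members differed, as in the fit without it. The cause of these changes was not tested. Depth limits EPB42 only, to 0.120 to 0.141 CPM for a count of 0.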
